A study of Homo sapiens with 4 samples.

Results

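Cohesin loops on chromosomes 4, 13 and 18 were taken as every called loop that lies on one of these chromosomes in any of the 4 libraries of the series, whatever its span. There were 2951 such loops among 41846 in all, with 1486 on chromosome 4, 757 on chromosome 13 and 708 on chromosome 18. Of these, 618 were listed in all 4 libraries, against 9529 over the whole series. The libraries are SMC1 HiChIP libraries of GM12878, a B-lymphoblastoid cell line made by transforming B cells with Epstein-Barr virus. HiChIP joins DNA ends that lie close together in the nucleus and then enriches, with an antibody, the joined fragments bound by a chosen protein, here the cohesin subunit SMC1. The APH group received 0.4 µM aphidicolin for 18 h and the HU group 0.2 mM hydroxyurea for 18 h. The DMSO group is the vehicle of aphidicolin and the H2O group the vehicle of hydroxyurea, for the same time. All 4 groups are the same line, and each has 1 library, so the spread between cultures was not measured. The titles carry the name of a different lymphoblastoid line, but GM12878 stands in the cell line entry, the source and the library names.

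Cohesin is a ring-shaped complex that extrudes DNA into loops and is held up at sites bound by CTCF, so loop anchors often carry CTCF motifs. Cohesin loops bring enhancers and promoters together and also form the frame of larger chromatin domains. Aphidicolin inhibits the replicative DNA polymerases and hydroxyurea inhibits ribonucleotide reductase, so both slow replication forks, aphidicolin in particular at very long, late-replicating genes known as common fragile sites. Chromosomes 4, 13 and 18 are known for few genes, much late-replicating chromatin and a position towards the edge of the nucleus.

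The label of gene-poor chromosomes was checked against a RefSeq gene table. Chromosome 13 had 2.96 protein-coding genes per Mb, chromosome 18 had 3.37 and chromosome 4 had 4.04. These were the 3 lowest values among 23 chromosomes, the others running from 4.92 to 24.8. Loops were sparse as well, with 6.63 per Mb on chromosome 13, 7.82 on chromosome 4 and 8.83 on chromosome 18, where the median of the other chromosomes was 14.7. This was not particular to the 3, as chromosome X had 4.16 per Mb and chromosome 21 had 7.82. Per gene, loops on the 3 chromosomes were not sparse. Chromosome 18 had 2.62 loops per gene, chromosome 13 had 2.24 and chromosome 4 had 1.93, and the median elsewhere was 2.27. Among 12 B cell marker genes anywhere in the genome, 10 had a loop in some library and 5 a loop in all 4. For 12 T cell markers the counts were 8 and 3, and for 12 myeloid and erythroid markers 6 and 1. CD79B, PAX5 and CD22 were among the B cell markers with no loop in all 4 libraries, and BANK1 on chromosome 4 had no loop in any.

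Promoter sequences are shown for 3 genes whose start lies in an anchor that the results turn on. PSTPIP2, which encodes an F-BAR protein that binds membranes and actin, and MYL12A, which encodes a myosin regulatory light chain, have a start in an anchor with many loops. TNFRSF19, a TNF receptor family member, has a start in the anchor of a loop described further on. The sequences are RefSeq promoters of GRCh38.p14, from 250 bases before to 50 after the start, 5′ to 3′ on the gene's strand. PSTPIP2 is chr18:46072211-46072510 on the minus strand, MYL12A is chr18:3247232-3247531 on the plus strand and TNFRSF19 is chr13:23570162-23570461 on the plus strand. Capitals mark GGNGGCAG, the core letters of the CTCF motif, searched on both strands.
PSTPIP2: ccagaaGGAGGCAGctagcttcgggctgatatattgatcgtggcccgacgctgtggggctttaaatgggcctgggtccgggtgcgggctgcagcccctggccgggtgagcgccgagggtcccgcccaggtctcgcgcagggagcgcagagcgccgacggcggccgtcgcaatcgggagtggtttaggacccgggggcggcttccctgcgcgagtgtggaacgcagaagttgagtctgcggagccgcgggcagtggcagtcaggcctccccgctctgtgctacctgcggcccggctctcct
MYL12A: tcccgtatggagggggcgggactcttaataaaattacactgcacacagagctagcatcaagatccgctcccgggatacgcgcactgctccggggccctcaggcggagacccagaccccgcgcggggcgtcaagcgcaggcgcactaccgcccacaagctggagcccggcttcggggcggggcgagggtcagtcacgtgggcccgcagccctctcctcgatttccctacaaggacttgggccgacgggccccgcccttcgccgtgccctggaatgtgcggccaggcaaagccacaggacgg
TNFRSF19: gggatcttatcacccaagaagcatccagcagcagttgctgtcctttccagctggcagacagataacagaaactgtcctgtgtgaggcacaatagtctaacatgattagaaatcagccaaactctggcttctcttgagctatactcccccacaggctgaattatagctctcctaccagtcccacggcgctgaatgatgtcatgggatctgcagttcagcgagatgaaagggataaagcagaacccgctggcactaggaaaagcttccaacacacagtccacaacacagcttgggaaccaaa
The letters occur once, in PSTPIP2, and not in the other windows shown. Shares were taken over the first promoter the table gives for each gene, so other starts of a gene are not counted. The letters occur in 18.7% of 15812 such promoters and in 17.1% of the 1190 from chromosomes 4, 13 and 18. Among the 79 promoters of these chromosomes whose start lies in an anchor of a loop listed in all 4 libraries, 16 held them, or 20.3% (95% Clopper-Pearson interval 12.04 to 30.8%). That interval holds the share of all promoters. A gene start lay in an anchor for 22.2% of the promoters of chromosomes 4, 13 and 18 (19.9 to 24.7%) and for 27.4% of those elsewhere (26.7 to 28.2%).

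The loops of these chromosomes were longer than loops elsewhere. The median span was 120 kb on chromosomes 4 and 13 and 125 kb on chromosome 18, above the 65 to 115 kb of the other 20 chromosomes. Within the DMSO library the median member spanned 150 kb and the median loop of the other chromosomes 105 kb. The APH library gave 130 and 95 kb, the H2O library 145 and 105 kb and the HU library 130 and 90 kb. Loops under 100 kb made up 32.9% of members in DMSO (30.2 to 35.6%), 33.7% in H2O (31.4 to 36.04%), 38.3% in APH (36.04 to 40.5%) and 37.4% in HU (35.0 to 39.98%). Elsewhere these shares were 46.2%, 46.6%, 52.2% and 52.6%. The gap between members and other chromosomes was wider than the counting intervals in each library, and in either set both drug libraries had a larger share of short loops than both vehicles. Among members the HU interval overlapped those of the vehicles. Loops of 500 kb or more held 5.83% of members in DMSO and 5.61% in H2O, against 4.25% in APH and 4.45% in HU. Those 4 intervals overlap.

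**Figure D1:**
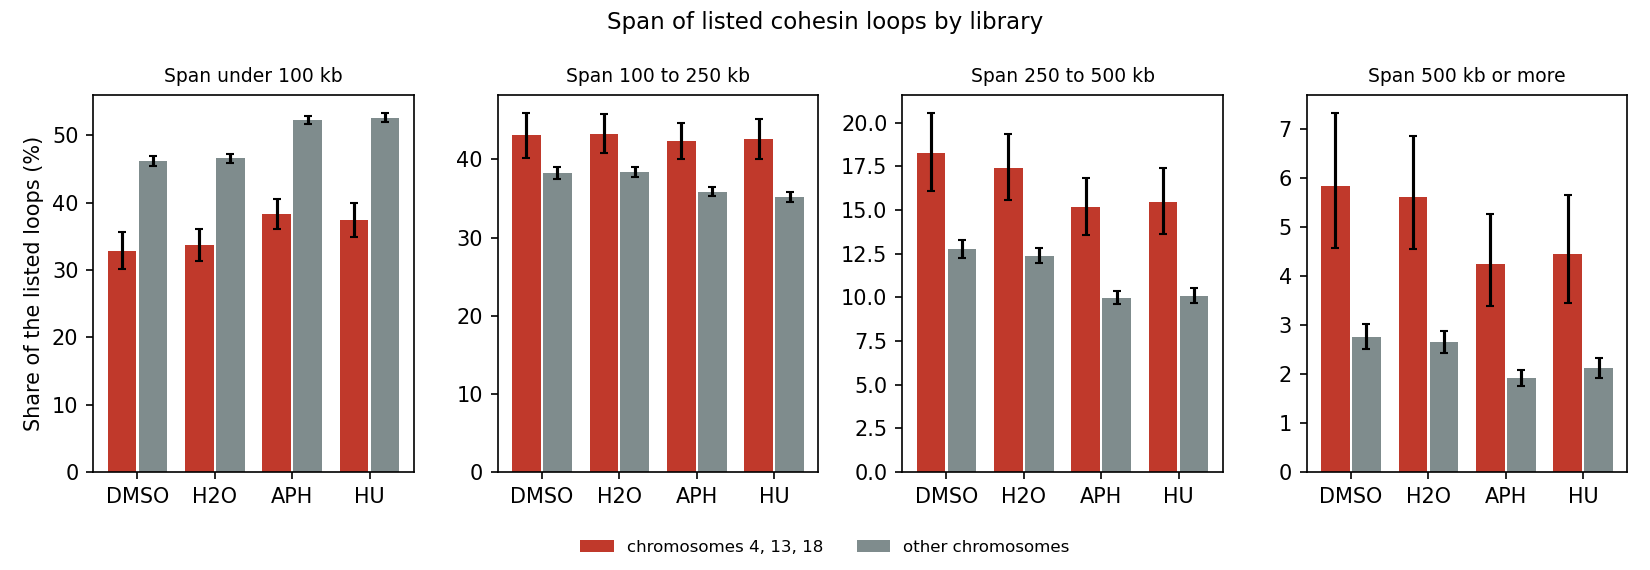
Share of listed loops in 4 span classes (y axis, %, each panel with its own scale from 0) for the DMSO, H2O, APH and HU libraries, on chromosomes 4, 13 and 18 (red) and on all other chromosomes (grey). Bars are 1 library each and error bars are 95% Clopper-Pearson intervals, which cover counting error only; members hold 32.9 to 38.3% of loops under 100 kb and the other chromosomes 46.2 to 52.6%.

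Members had slightly lower counts than other loops, but slightly higher counts over those expected. The median count of a listed member was 18 to 19 by library and that of other loops 20. The median count over the caller's expected count was 6.12 (DMSO) and 5.62 (H2O) in the vehicles and 5.41 (APH) and 5.71 (HU) with the drugs. Elsewhere it was 5.65 and 5.19, and 4.95 and 5.18. Surroundings differed in gene content by the choice of chromosomes. Of the 618 members in all 4 libraries, 21.8% had 0 to 4 protein-coding genes within 500 kb of the midpoint, and 0.809% had 20 or more. Of the other loops, 9.04% and 25.3% did. Even so, 38.2% of all members had both anchors on gene bodies (36.4 to 39.97%), 40.7% had 1 anchor on a gene and 21.1% had none. The shares elsewhere were 41.9%, 38.9% and 19.2%. Both anchors fell inside 1 and the same gene in 21.9% of members and 19.7% of other loops.

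The strongest loops of each chromosome are given first. On chromosome 4 the leading loop spanned 20 kb from chr4:38760001-38765000 to chr4:38780001-38785000, with the second anchor on TLR10, a Toll-like receptor expressed by B cells. Vehicle counts there were 127 (DMSO) and 128 (H2O), and drug counts 179 (APH) and 133 (HU). To set libraries side by side, counts were scaled to 100000 counts over the loops of all chromosomes listed in all 4 libraries, which gives 42.3, 47.5, 39.3 and 41.3 for this loop. The 4 libraries stood close together there. A loop of 70 kb reached ART3 from next to CXCL9, a chemokine induced by interferon, with 79, 109, 86 and 75 counts in the order DMSO, APH, H2O and HU. On chromosome 18 a 40 kb loop between CCBE1 and PMAIP1 had 60, 109, 102 and 109 counts. PMAIP1 encodes NOXA, a p53-induced promoter of apoptosis, and its body lay 74 kb from the nearer anchor. DMSO was the lowest library at that loop, below both drugs and below the other vehicle. Next to it in rank on chromosome 18, a 45 kb loop joined SERPINB2 and SERPINB10 of the serpin cluster, with 78, 105, 83 and 92 counts.

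On chromosome 13 the leading loop spanned 55 kb and ended at chr13:23565001-23570000, the bin just before the start of TNFRSF19 shown above. Its counts, in the order DMSO, APH, H2O and HU, were 67, 136, 94 and 103, or 22.3, 36.1, 28.9 and 32.0 when scaled. The APH over DMSO log2 ratio was 0.69 (95% interval 0.26 to 1.14) and the HU over H2O ratio 0.15 (-0.27 to 0.57). The loop one bin further, from the same first anchor to the bin that holds the TNFRSF19 start, had 35, 54, 44 and 25 counts in the same order. There HU was the lowest library, with a log2 ratio over H2O of -0.80 (-1.57 to -0.06), and APH over DMSO was 0.30 (-0.34 to 0.95). Bins that touch share fragments of the same contact, so these loops are not separate measurements of it. UBAC2, which encodes a ubiquitin-associated protein of the endoplasmic reticulum, held the next strongest loop, of 90 kb, with 82, 99, 116 and 97 counts.

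Some genes and anchors had many loops, though most anchors had 1. ALPK2, an alpha-kinase gene on chromosome 18, had 41 loops in any library and 10 in all 4. PIEZO2, a mechanically gated ion channel on the same chromosome, had 25 and 3. UBAC2 had 35 and 11. C4orf36 had 33 and 8, and RBPJ, the DNA-binding partner of Notch that the Epstein-Barr virus protein EBNA2 also uses, had 32 and 3. Of the 2942 anchors on the 3 chromosomes, 56.7% had 1 loop and 23, or 0.782%, had 10 or more. Elsewhere 53.5% of anchors had 1 loop and 1.20% had 10 or more, so loops were less gathered on these chromosomes. The anchor with most loops, 18, lay over MYL12A and the neighbouring gene MYOM1, and 9 of these loops were in each vehicle list, 12 in the APH list and 7 in the HU list. An anchor 35 kb from TBC1D1 had 16 loops. The PSTPIP2 start had 15, of which the vehicle lists held 3 (DMSO) and 7 (H2O) and the drug lists 12 (APH) and 5 (HU). APH was the library with most loops there and DMSO the one with fewest, as in the libraries as a whole, where APH listed 27395 loops and DMSO 17660. BCL2, the apoptosis inhibitor, had an anchor with 12 loops.

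At the other extreme stood long stretches with no anchor in any library. The longest ran over 10.28 Mb of chromosome 13 and holds PCDH9, KLHL1 and DACH1. Chromosome 4 had one of 8.92 Mb with PCDH7 and one of 8.39 Mb with PCDH10 and PCDH18. Protocadherins are cell adhesion proteins used mainly in the nervous system. On chromosome 18 the longest, of 6.88 Mb, holds POTEC and ANKRD30B. Another, of 3.82 Mb, holds the cell adhesion gene CDH2 and desmosomal cadherins such as DSC3 and DSG1. Of the 7 genes of the desmosomal cluster, 0 had a loop in any library. Empty stretches were not particular to these chromosomes. Of windows of 1 Mb, 27.3% on chromosome 4, 31.25% on 13 and 23.5% on 18 had no anchor, against 5.71% (chromosome 22) to 35.9% (X) elsewhere. Of 24 nervous system genes listed as an outside tissue, 7 had a loop and 4 had one in all 4 libraries. Over all protein-coding genes of the 3 chromosomes, 623 of 1377 had a loop, or 45.2%, and 297 had one in all 4 libraries, or 21.6%. Among the longest loops listed in all 4 libraries, one of 910 kb on chromosome 13 ended 5 kb from SLITRK6, a neuronal adhesion gene, with 14, 23, 21 and 27 counts in DMSO, APH, H2O and HU. One of 845 kb on chromosome 4 joined CLNK, an adaptor of immune receptor signalling, to HS3ST1, a heparan sulfate sulfotransferase, with 13, 25, 18 and 17 counts.

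The share of the called list that lay on these chromosomes was similar across treatments. For the vehicles it was 6.70% with DMSO (6.34 to 7.08%) and 7.22% with H2O (6.89 to 7.57%), for aphidicolin 6.79% (6.50 to 7.10%) and for hydroxyurea 6.81% (6.48 to 7.16%). The H2O library was the highest, and its interval overlapped the other 3. Among members, 145 were listed in both drug libraries and neither vehicle, or 4.91% (4.16 to 5.76%), with a median span of 105 kb. Elsewhere the share was 5.75% (5.52 to 5.98%) and the median span 75 kb. In both vehicles and neither drug there were 62 members, or 2.10%, with a median span of 187.5 kb, and elsewhere 787, or 2.02%, with a median of 135 kb. In members and elsewhere alike, the loops seen with both drugs only were thus shorter than those seen with both vehicles only. CTIF, a translation initiation factor gene on chromosome 18, had 4 of the former, and PROM1, which encodes the surface protein CD133, had 3. TMEM154 had 3 of the latter.

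Pooled over the 618 members in all 4 libraries, scaled counts differed between treatments by a few percent at most. Per 100000, the vehicles had 5735 (DMSO) and 5977 (H2O), aphidicolin 5688 and hydroxyurea 5849. H2O was the highest library and APH the lowest, with HU between the vehicles. The log2 ratio of APH over DMSO was -0.01 (-0.04 to 0.02), against 0.00 on the other chromosomes. For HU over H2O it was -0.03 (-0.06 to -0.002), a difference from the other chromosomes of -0.03 (-0.06 to -0.003). Measured against loops of like span it was -0.00626, and without chromosome 4, 13 or 18 its interval held 0. For the vehicles, H2O over DMSO, it was 0.06 (0.03 to 0.09), a difference of 0.06 (0.03 to 0.09). The vehicle value was the largest of the 3 in size, though in size its interval overlapped that of hydroxyurea. Scaled by each library's whole list, which moves every ratio by -0.38, 0.05 and -0.24 in these 3 comparisons, the pooled values were -0.39, 0.02 and -0.18, so the last 2 changed sign. The differences from the other chromosomes do not depend on that choice. With vehicles exchanged, APH over H2O was -0.07 (-0.10 to -0.04) and HU over DMSO 0.03 (-0.002 to 0.06), so the sign of the HU value turned with the vehicle. The vehicle comparison shares its libraries with both drug comparisons, and whether its value is due to the vehicles or to libraries made apart cannot be told apart with 1 library a group.

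The 3 chromosomes stood together in the vehicle comparison, and for aphidicolin with H2O as the vehicle but not with DMSO. H2O over DMSO was 0.07 on chromosome 4 (0.03 to 0.11), 0.05 on chromosome 18 (-0.005 to 0.11) and 0.04 on chromosome 13 (-0.02 to 0.10), or ranks 2, 3 and 4 from the top of 23 chromosomes, after chromosome 21 at 0.12 (0.03 to 0.20). For APH over DMSO chromosome 4 ranked 8, chromosome 13 ranked 19 and chromosome 18 ranked 22 of 23. Over H2O the same 3 ranked 20, 21 and 23, at -0.06 (-0.10 to -0.02), -0.07 (-0.13 to -0.01) and -0.09 (-0.15 to -0.03). For HU over H2O they ranked 18, 17 and 19, between -0.03 and -0.04, where the other chromosomes ran from -0.15 to 0.08. Over DMSO they ranked 2, 6 and 8, at 0.04 (-0.0006 to 0.08), 0.02 (-0.04 to 0.08) and 0.01 (-0.05 to 0.07). Their sign for hydroxyurea thus turned with the vehicle.

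**Figure D2:**
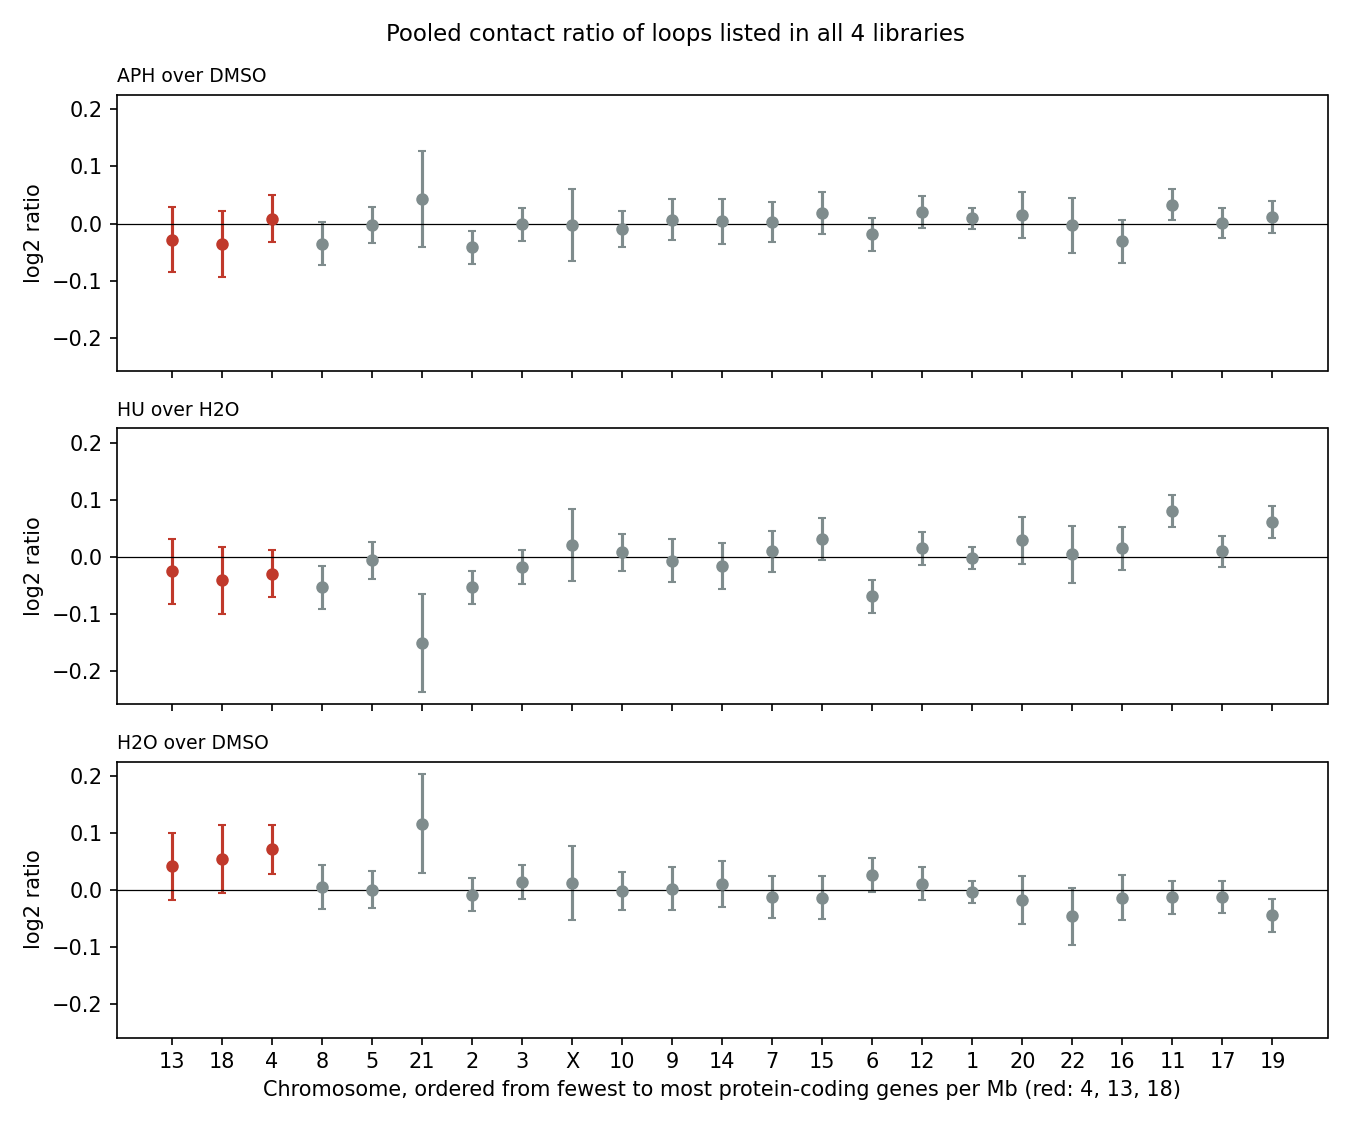
Pooled log2 ratio of scaled counts (y axis) over loops listed in all 4 libraries for each of 23 chromosomes, ordered along the x axis from fewest to most protein-coding genes per Mb, in 3 panels for APH over DMSO, HU over H2O and H2O over DMSO; chromosomes 13, 18 and 4 are red. Error bars are 95% counting intervals from 1 library a group; the red points lie at 0.04 to 0.07 in the vehicle panel and between -0.04 and 0.01 in the drug panels.

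The members' ratios for aphidicolin went with span. For members under 100 kb the pooled APH over DMSO log2 ratio was 0.09 (0.04 to 0.14). From 100 to 250 kb it was -0.04 (-0.09 to 0.001) and from 250 to 500 kb -0.13 (-0.20 to -0.06). The class of 500 kb or more was at -0.08 (-0.23 to 0.06). Short loops were higher and loops of 250 to 500 kb lower, though short loops were at -0.29 when scaled by the whole list, and the longest class, with 32 loops, had an interval that holds 0. With H2O as the vehicle the 4 classes were at 0.02 (-0.02 to 0.07), -0.09, -0.23 and -0.10, so the interval of the short class then held 0. Against DMSO, members of 250 kb or more lay 0.21 below members under 100 kb (-0.29 to -0.13 for the difference of log2 ratios). On the other chromosomes the 4 classes gave 0.08, -0.04, -0.18 and -0.26. Over all loops of 250 kb or more the members were at -0.12 and the others at -0.19, a difference of 0.07 (0.002 to 0.14). Long loops on these chromosomes were therefore lower under aphidicolin by less than long loops elsewhere, at the edge of the counting interval. With H2O as the vehicle that difference was -0.03 (-0.09 to 0.04). Its 2 parts went apart. At 250 to 500 kb the difference was 0.05 (-0.03 to 0.13) over DMSO and -0.07 (-0.14 to 0.01) over H2O. At 500 kb or more, with 32 members, it was 0.18 (0.02 to 0.33) over DMSO and 0.16 (0.01 to 0.31) over H2O.

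By chromosome, the short loops of chromosomes 4 and 18 were higher in APH than in DMSO, at 0.13 (0.06 to 0.20) and 0.11 (0.01 to 0.21), while chromosome 13 was at 0.00 (-0.10 to 0.10). Over H2O the short loops of chromosome 4 were at 0.03 (-0.04 to 0.10) and those of chromosome 18 at 0.07 (-0.02 to 0.17). The loops of 250 kb or more were lowest on chromosome 18, at -0.20 (-0.32 to -0.08). Chromosomes 4 and 13 gave -0.09 (-0.18 to 0.005) and -0.08 (-0.22 to 0.06). Over H2O these long loops were at -0.16 (-0.25 to -0.07) on chromosome 4 and -0.17 (-0.31 to -0.04) on chromosome 13. Those of chromosome 18 were at -0.29 (-0.40 to -0.17), so each interval then lay below 0.

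Hydroxyurea over its own vehicle, H2O, gave the same order of the 4 classes. HU over H2O was 0.03 under 100 kb (-0.02 to 0.08), -0.05 at 100 to 250 kb (-0.09 to -0.01), -0.11 at 250 to 500 kb (-0.18 to -0.03) and -0.07 at 500 kb or more (-0.22 to 0.08). Members of 250 kb or more lay 0.13 below those under 100 kb (-0.21 to -0.05). Chromosome 18 was again the lowest for loops of 250 kb or more, at -0.19 (-0.30 to -0.07). Over DMSO the classes were at 0.10 (0.05 to 0.15), -0.004 (-0.05 to 0.04), -0.01 (-0.08 to 0.06) and -0.06 (-0.21 to 0.09), with the short class higher and the intervals of the others holding 0. The loops of 250 kb or more on chromosome 18 were then at -0.10 (-0.22 to 0.02). For HU over H2O the other chromosomes gave 0.08, -0.06, -0.13 and -0.18. In that comparison the short members were 0.05 lower than short loops elsewhere, with an interval that holds 0 (-0.10 to 0.004). For HU over DMSO the other chromosomes gave 0.08, -0.06, -0.15 and -0.19. Members of 250 kb or more were at -0.02 over DMSO and such loops elsewhere at -0.16, a difference of 0.14 (0.07 to 0.21). Over H2O they were at -0.10 and -0.14, a difference of 0.04 with an interval that holds 0 (-0.03 to 0.11). H2O over DMSO followed no such order. It was 0.06, 0.05, 0.10 and 0.01 in the 4 classes, and the long classes differed from the short one by 0.01 (-0.07 to 0.10).

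**Figure D3:**
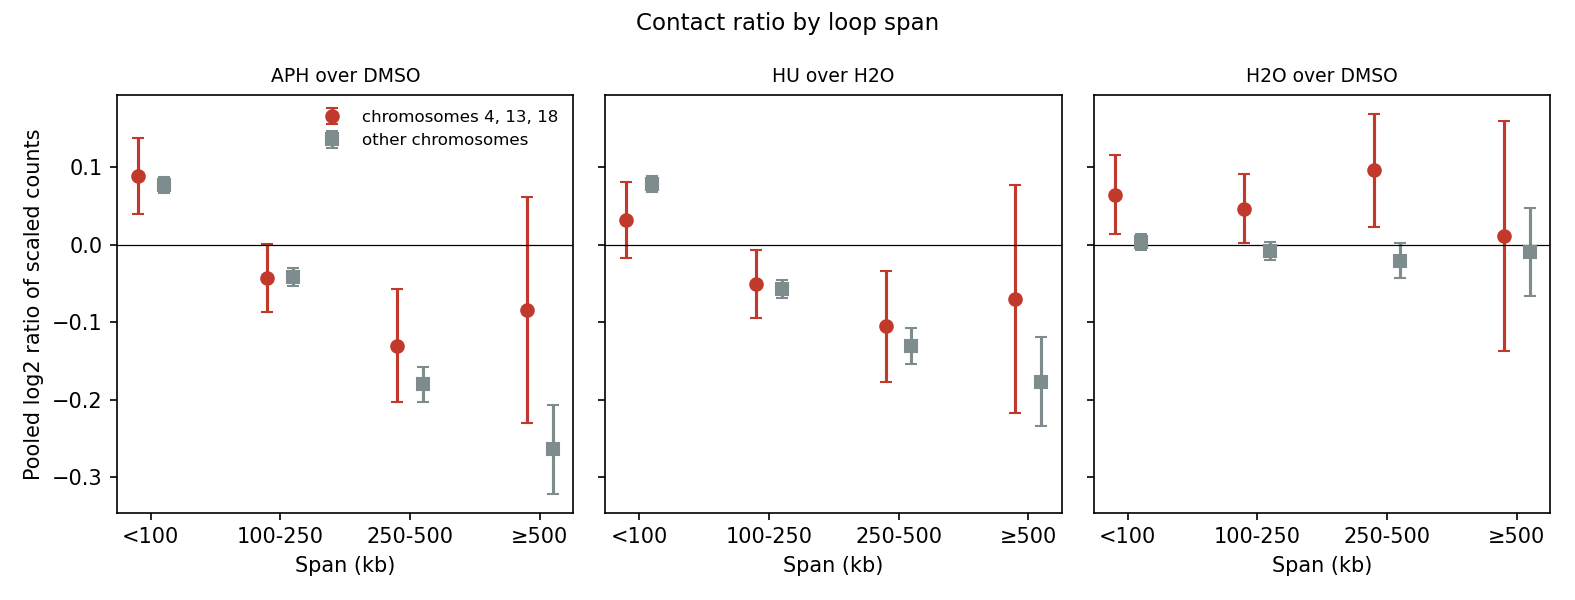
Pooled log2 ratio of scaled counts (y axis) by loop span in kb (x axis) for APH over DMSO, HU over H2O and H2O over DMSO, for chromosomes 4, 13 and 18 (red circles) and all other chromosomes (grey squares). Bars are 95% counting intervals with 1 library a group; for APH over DMSO members go from 0.09 under 100 kb to -0.13 at 250 to 500 kb, and in the vehicle panel members lie at 0.01 to 0.10.

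The vehicle value was highest where genes were fewest, within overlapping intervals. Members with 0 to 4 genes within 500 kb, of which there were 135, had H2O over DMSO at 0.11 (0.05 to 0.18), while the 806 other loops in equally empty surroundings were at 0.00, a difference of 0.11 (0.04 to 0.18). Members with 5 to 9 genes were at 0.05 (0.01 to 0.09) and those with 10 to 19 genes at 0.04 (-0.02 to 0.11). The emptiest class lay 0.07 above all members with 10 or more genes, with an interval that holds 0 (-0.02 to 0.16). For APH over DMSO the emptiest class was at 0.05 (-0.01 to 0.12) and its counterpart elsewhere at -0.04 (-0.06 to -0.01), a difference of 0.09 (0.02 to 0.16). With H2O as the vehicle they were at -0.06 (-0.12 to 0.003) and -0.04 (-0.06 to -0.01), a difference of -0.02 (-0.09 to 0.05). For HU over H2O both were near 0, at -0.02 and -0.03. With DMSO as the vehicle they were at 0.10 (0.03 to 0.16) and -0.03 (-0.06 to -0.01), a difference of 0.13 (0.06 to 0.20). The gap between members and other loops thus turned on the vehicle for both drugs. The emptiest class also had the longest loops, with a median of 195 kb, against 130 kb with 10 to 19 genes. Only 5 members had 20 or more genes.

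Single loops were called when their scaled ratio was at least 1.5-fold in either direction and the 95% interval excluded a ratio of 1. For APH over DMSO this called 32 of 618 members, 19 higher and 13 lower, or 5.18%, where it called 4.7% of all 9529 loops, 2.28% higher and 2.42% lower. When counts were scaled by each library's whole list instead, the split was 1 higher and 80 lower. For HU over H2O it called 33 members, 12 higher and 21 lower, or 5.34%, against a background of 6.37%, with 3.41% higher and 2.96% lower. Measured against all loops of like span, the split was 15 higher and 16 lower, and scaled by the whole list it was 19 and 17. For H2O over DMSO it called 15, 11 higher and 4 lower, or 2.43% against 2.21% (1.13% higher, 1.08% lower), and 1 higher and 30 lower when scaled by the whole list. All 3 shares lay near their background. With vehicles exchanged, 40 members were called for APH over H2O and 36 for HU over DMSO, or 6.47% and 5.83%, against 5.87% and 5.86% of all loops. The first split into 14 higher and 26 lower and the second into 23 higher and 13 lower, so the side with more calls turned with the vehicle for both drugs. Members called higher in APH had a median span of 75 kb and those called lower 230 kb. Chromosome 4, which held 311 of the 618 members, had 14 of the 19 higher ones and 4 of the 13 lower ones. For HU over H2O it had 9 of the 12 higher and 14 of the 21 lower.

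The called loop with the highest APH over DMSO ratio was a 40 kb loop 22 kb from TRIM2, a ubiquitin ligase gene, with 16, 52, 24 and 26 counts in DMSO, APH, H2O and HU. Only the APH library stood out, at 1.37 (0.54 to 2.28) on the log2 scale. Lowest came a 215 kb loop from ABCC4, a drug and nucleotide efflux pump, with 26, 14, 25 and 27 counts and a ratio of -1.22 (-2.27 to -0.23). There APH alone was low. For HU over H2O the highest was a 125 kb loop within HERC3, an E3 ubiquitin ligase gene, at 1.21 (0.26 to 2.23) from 23, 33, 14 and 32 counts. H2O was the lowest of the 4 libraries at that loop, and HU over DMSO was 0.38 (-0.44 to 1.22). Lowest came a 260 kb loop between the surroundings of GPALPP1 and GTF2F2, a subunit of the general transcription factor TFIIF, with 25, 26, 40 and 17 counts and a ratio of -1.22 (-2.13 to -0.37). H2O was the highest library there, and HU over DMSO was -0.66 (-1.64 to 0.29).

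Called in the same direction with both drugs were 3 of 618 members, or 0.485%, against 0.735% of all 9529 loops, which is 70 loops. In opposite directions there were 0 members and 4 other loops. The higher one was a 150 kb loop from CD38 at chr4:15805001-15810000 to chr4:15955001-15960000, at the edge of FGFBP2. CD38 is a surface enzyme that breaks down NAD and marks activated B cells and plasma cells. Vehicle counts were 29 (DMSO) and 41 (H2O) and drug counts 62 (APH) and 75 (HU). In the order DMSO, APH, H2O and HU the scaled values were 9.66, 16.4, 12.6 and 23.3. Both drug libraries lay above both vehicles. APH over DMSO was 0.77 (0.11 to 1.46), or 1.70-fold, and HU over H2O 0.89 (0.32 to 1.47), or 1.85-fold. Against the exchanged vehicle HU was at 1.27 (0.63 to 1.94), while APH over H2O was 0.39 (-0.21 to 0.99) and was not called.

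The lower ones kept their call against either vehicle. A 170 kb loop joined C4orf36 at chr4:86920001-86925000 to AFF1, a subunit of the super elongation complex and a fusion partner in leukaemia, at chr4:87090001-87095000. The vehicles had 91 (DMSO) and 101 (H2O) counts and the drugs 64 (APH) and 57 (HU), or, in the order used above, 30.3, 17.0, 31.0 and 17.7 when scaled, and the vehicles were alike. APH over DMSO was -0.84 (-1.32 to -0.36) and HU over H2O -0.81 (-1.30 to -0.33), and the exchanged vehicles gave -0.87 and -0.78. A 305 kb loop on chromosome 13 ran from 3 kb beside CAB39L, an adaptor of the kinase LKB1, to 18 kb from ARL11, a small GTPase of the ARF family. It had 68, 56, 74 and 43 counts, or 22.6, 14.9, 22.7 and 13.4 when scaled. Its ratios were -0.61 (-1.14 to -0.08) and -0.77 (-1.34 to -0.21), and -0.61 and -0.76 with vehicles exchanged.

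Summed per gene, members with an anchor on the gene body and at least 60 counts in the 2 libraries gave 178 places for APH over DMSO, a place being a gene or genes with the same loops. The call at 1.5-fold took 6 of them, 3 higher and 3 lower, or 3.37% against 3.3% of 3119 places on all chromosomes (1.8% higher, 1.51% lower). CD38, described above, was among the higher ones, and SHROOM3, an actin-binding regulator of cell shape, was at 0.68 (0.23 to 1.15) with 61, 123, 69 and 85 counts.

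The lower places were FAM114A1 with KLHL5, at -0.81 (-1.45 to -0.18) from 53, 38, 59 and 46 counts, GJA3 with ZMYM2 and ZNF516. GJA3, a gap junction gene, and ZMYM2, a zinc finger gene, share 2 loops with 42, 32, 32 and 31 counts and a ratio of -0.72 (-1.43 to -0.02). ZNF516, a zinc finger gene of chromosome 18, had 56, 43, 49 and 38 counts and a ratio of -0.71 (-1.32 to -0.11). DMSO was the highest library at GJA3 and ZNF516, and neither was called for APH over H2O, at -0.21 and -0.40. The pair FAM114A1 and KLHL5 was, at -0.85.

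For HU over H2O, 8 of 177 places were called, 4 in each direction, or 4.52% against 6.01% of 3078 places (4.13% higher, 1.88% lower). TRIM2 had 21, 42, 28 and 53 counts in DMSO, APH, H2O and HU and was at 0.94 (0.25 to 1.65). RASSF6, a RAS association domain gene linked to Hippo signalling, had 63, 86, 62 and 102 counts and was at 0.73 (0.26 to 1.21). SDAD1, needed for export of the large ribosomal subunit, had 34, 44, 40 and 62 counts and was at 0.65 (0.05 to 1.26). At RASSF6 and SDAD1 HU alone was high, whereas at TRIM2 both drug libraries were above both vehicles. CD38 was the remaining one, its place being the loop described above, and the 4 higher places were also called for HU over DMSO. SNX25, a sorting nexin gene, was lowest at -0.85 (-1.37 to -0.34) with 85, 74, 93 and 51 counts, and was called against DMSO as well, at -0.84. TNFRSF19 followed at -0.80. The places TRIM2, CD38, SDAD1, SNX25 and TNFRSF19 rest on 1 loop each. PIEZO2 had 91, 101, 143 and 90 counts and a ratio of -0.65 (-1.05 to -0.26). N4BP2, on chromosome 4, had 162, 184, 207 and 136 counts and was at -0.59 (-0.91 to -0.27). For PIEZO2 the H2O library alone was high, and HU over DMSO was -0.12 (-0.55 to 0.32). TNFRSF19 and N4BP2 were not called over DMSO either, at -0.59 and -0.35.

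**Figure D4:**
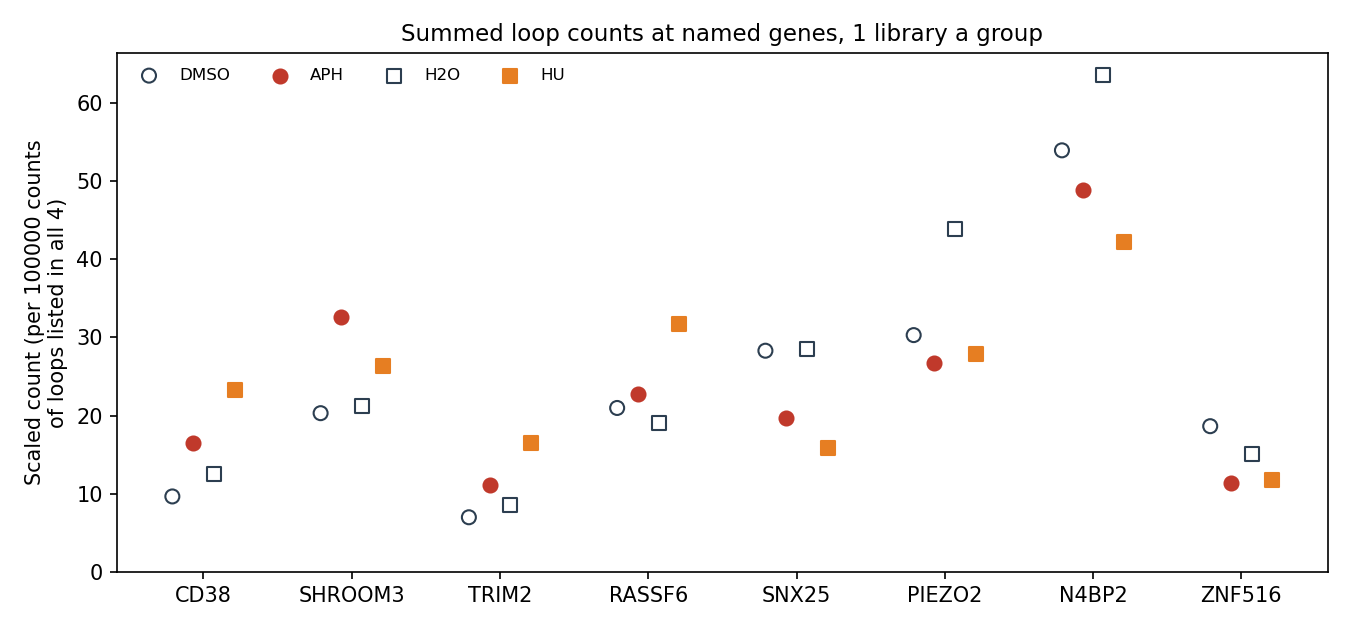
Scaled loop counts (y axis, per 100000 counts over loops listed in all 4 libraries, from 0) at 8 called genes of chromosomes 4 and 18, with 1 point for each of the DMSO, APH, H2O and HU libraries and no error bar. At CD38 and TRIM2 both drug points lie above both vehicle points, at SNX25 both lie below, and at PIEZO2 the H2O point, 43.9, stands apart from the other 3.

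In the vehicle comparison 7 of 169 places were called, 6 higher in H2O and 1 lower, or 4.14% against 1.57% of 2987 places in either direction (0.67% higher, 0.904% lower). With vehicles exchanged, 10 of 185 places were called for APH over H2O, or 5.41% against 4.61%, and 11 of 174 for HU over DMSO, or 6.32% against 5.84%. These places were chosen after their values were seen. COMMD6 with UCHL3 on chromosome 13 had 55 counts in DMSO and 99 in H2O, a ratio of 0.73 (0.24 to 1.23), and EDNRA, the endothelin A receptor gene, had 57 and 100, a ratio of 0.69 (0.21 to 1.19). PSMG2, NOL4, MBD2 with POLI and SLC9B1 were at 0.61 to 0.79. COPS4, a subunit of the COP9 signalosome, was the lower one, at -0.78 (-1.51 to -0.08).

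Gene lists were read through the same places. Of 35 B and lymphoid cell genes on these chromosomes, 30 had a loop, 14 had one in all 4 libraries and 10 were measured, that is, had at least 60 counts. CD38 was the one called, higher with both drugs. The median log2 ratio of the 14 was -0.05 for APH over DMSO and -0.16 for HU over H2O, where the 4831 genes with loops on all chromosomes gave -0.02 and 0.00. RHOH, a small GTPase of blood cells, had 249, 259, 279 and 217 counts and ratios of -0.27 (-0.53 to -0.01) and -0.35 (-0.61 to -0.09). BCL2 had 174, 169, 182 and 154 counts and ratios of -0.37 (-0.68 to -0.06) and -0.22 (-0.54 to 0.09). TLR6, a Toll-like receptor gene as TLR10 is, had 316, 410, 375 and 296 counts and ratios of 0.05 (-0.17 to 0.26) and -0.33 (-0.55 to -0.10). TLR1 and TLR10 were at 0.02 and 0.20 for APH over DMSO. For HU over H2O they were at -0.54 (-1.02 to -0.07) and -0.03 (-0.28 to 0.23). None of these reached 1.5-fold. RHOH, BCL2 and TLR6 were named for their counts after these were seen, and TLR1 and TLR10 to stand beside TLR6. By the naming rule, the list ran from BST1, an NAD-consuming enzyme beside CD38, at 0.84 (-0.19 to 1.96) to TET2, a DNA demethylase gene, at -0.74 (-1.71 to 0.20) for APH over DMSO, both on few counts.

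Of 40 very long or fragile site genes, 25 had a loop and 12 were measured. For APH over DMSO 1 was called, higher, for HU over H2O 0, and in the vehicle comparison 1, NOL4. The lowest for APH over DMSO was TBC1D1, a regulator of glucose transport, with 330, 352, 356 and 302 counts and a ratio of -0.23 (-0.46 to -0.01). The median of the list's 13 genes with loops in all 4 libraries was -0.01. Of 28 replication, nucleotide supply and repair genes, 12 had a loop and 3 had one in all 4 libraries, namely BRCA2, ERCC5 and RB1, with APH over DMSO between -0.15 and 0.12 and none called. Of 8 p53 and damage response targets, 4 were measured and none was called. PMAIP1 was the highest, with 37, 68, 37 and 44 counts and ratios of 0.55 (-0.05 to 1.17) and 0.27 (-0.40 to 0.94). TSC22D1 was the lowest, at -0.31 and -0.25.

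Of 7 cohesin, condensin and related genes, 6 had a loop and 2 were measured for aphidicolin. PDS5A and PDS5B, which regulate cohesin's hold on DNA, were at -0.33 (-0.997 to 0.34) and -0.40 (-1.08 to 0.28) for APH over DMSO and at 0.02 and -0.05 for HU over H2O. Of 13 genes responsive to NF-kB or Epstein-Barr virus latency, 8 had a loop and 1, BCL2, was measured. The 13 chemokine genes of 4q13 had 3 with a loop and 1, CXCL9, with a loop in all 4 libraries, of 17, 23, 22 and 24 counts. The serpin cluster of 18q21 had loops at 5 of 10 genes. SERPINB2, an inhibitor of urokinase, was its highest measured member, with 122, 173, 129 and 150 counts and ratios of 0.18 (-0.17 to 0.52) and 0.23 (-0.12 to 0.58). Of the nervous system genes, GABRA4 and CDH20 marked the ends of the list for APH over DMSO, at 0.09 and -0.33, and none was called.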

How the data were processed

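Each of 4 SMC1 HiChIP libraries came as 1 list of called loops between 5 kb bins, 10 to 1000 kb apart, on build hg38. Per the submitters' processing notes, bcl2fastq 2.17 and MACS3 3.0.1 were used; the aligner is not given in the sources used here, nor is the loop caller. No file has a header, so columns were read from their values. The deposited contact counts are raw whole numbers of at least 12. A deposited signal column was taken as the expected count, which every count exceeds at least 2 times, a deposited p-value column (false discovery rate) lies below 0.01, and the authors' summit mark was used in an alternative.

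Counts over loops listed in all 4 libraries totalled 300320 (DMSO), 376948 (APH), 325634 (H2O) and 322048 (HU), and ratios used these totals. The whole lists held 449565, 732695, 575756 and 550828 counts. An unlisted loop is not a 0, and read depth is unknown. Ratio intervals are 95% exact conditional binomial, share intervals Clopper-Pearson, and differences of ratios use a normal approximation. All cover counting error only, and without molecular identifiers reads need not be independent molecules. There is no p-value of a comparison.

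Loops were assigned to genes by overlap of an anchor with the gene body (RefSeq, GRCh38.p14, 19970 protein-coding genes, 1377 of them on the 3 chromosomes). Local gene content is the number of genes within 500 kb of the loop midpoint. The named items are, for each drug, up to 6 highest and 6 lowest called places and the highest and lowest called loop, the ends of each gene list, and, per chromosome, the 2 genes with most loops and the 3 strongest loops. Not every item the rule names is given, and 1 called place is not reported here. The chromosomes, lists and rules were chosen with earlier results of these data known. Anchor sequences were not analysed here. Python 3.11.15, numpy 2.4.6, pandas 2.3.3, scipy 1.17.1 and matplotlib 3.10.9 were used.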

Additional observations from a re-analysis of the deposited data

How the results depend on the processing

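Scaling by whole lists moved log2 ratios by -0.38 for APH over DMSO, 0.05 for HU over H2O and -0.24 for H2O over DMSO. Pooled ratios became -0.39, 0.0167 and -0.18, and called loops 81 for APH over DMSO and 31 for H2O over DMSO, with 38 genes called for APH over DMSO. The short class turned to -0.29 for APH over DMSO. For H2O over DMSO the first 3 span classes turned to -0.18, -0.19 and -0.14. Exchanged vehicles gave -0.0714 for aphidicolin, with 10 genes called, and 0.0284 for hydroxyurea, which dividing by expected counts put at 0.00108. At 24 counts in every library 16, 16 and 8 loops were called for APH over DMSO, HU over H2O and H2O over DMSO, and 4 genes in the last. A 2-fold limit left 11, 11 and 5 loops. With 100 counts a gene, 2 were called for APH over DMSO and 4 for H2O over DMSO, and anchors within 5 kb of a gene end gave 5 for HU over H2O.

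At 24 counts, members made up 5.94% of the DMSO list, 5.96% of APH, 6.36% of H2O and 5.89% of HU, and 47.8%, 49.7%, 47.9% and 49.4% of them were under 100 kb. A minimum set by library total gave 43.8% in APH and 37.7% in H2O. The other 85 alternatives to the main results stayed within the counting interval or 1.5 times the count. The differences between span classes and between gene densities did so under each alternative that could move them. Scaling by whole lists cannot move such a difference, so those alternatives, counted among the 85, were fixed in advance. Exchanged vehicles were not run for the difference between gene densities. Leaving out any of the 3 chromosomes kept each pooled ratio within its interval, though for HU over H2O the interval then held 0. Within 1 bin, 838 members of DMSO had a match in every other library, against 618 exact ones.

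No paired analysis was possible because each group has 1 library. The median listed member has 18 to 19 counts, and the spread between cultures was not measured.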
